A study of Mus musculus with 12 samples.

Results

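Mouse embryonic stem cells, pluripotent cells derived from the early embryo, were compared after 6 h of 4-hydroxytamoxifen (4OHT, 250 nM) and without treatment. The comparison used the 3 arrays labelled with 4OHT for 6 h and the 3 arrays labelled untreated, 6 of the 12 one-colour Agilent arrays of the series, and none of the arrays with the proteasome inhibitor MG132. All cells, the untreated ones included, were kept in stem cell medium to which LIF, the cytokine leukaemia inhibitory factor, and 250 nM PD173074, an inhibitor of fibroblast growth factor (FGF) receptors, had been added. The untreated samples are titled 0 h, and the labels name neither a vehicle nor untreated cells kept for 6 h, so the compound, its vehicle and the hours in culture cannot be told apart. The series' title refers to transcription that depends on the proteasome and on the kinase ERK. The labels used here name no strain, line, clone, transgene or fusion protein that 4OHT would act on. The submitters describe 3 biological replicates per condition.

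4OHT is the active form of tamoxifen, and laboratories use it to switch on engineered proteins that carry the hormone-binding part of the oestrogen receptor. ERK is the last kinase of a cascade that runs from receptor tyrosine kinases through RAS, RAF and MEK. Active ERK phosphorylates transcription factors such as ELK1, which works with serum response factor, and the first genes to respond encode transcription factors of the EGR and AP-1 families and the cascade's own inhibitors, among them the DUSP phosphatases and Sprouty proteins. In mouse embryonic stem cells FGF4 is the main natural source of ERK activity, and ERK activity is known for moving the cells out of the naive state that NANOG, KLF4, ESRRB and TFCP2L1 uphold.

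Levels are given as log2 processed intensity minus the array's own 75th percentile, so a level of 0 is that percentile and a difference of 1 is a 2-fold change. The 75th percentiles lay between 207.2 (4OHT replicate 1) and 320.1 intensity units (untreated replicate 1). The share of probes well above background was 60.27% to 61.49% on the untreated arrays and 61.38%, 49.55% and 53.53% on 4OHT replicates 1, 2 and 3. The number of arrays, 3 per group, limits the precision. Untreated arrays correlated with each other at 0.994 to 0.997 over the genes tested and 4OHT arrays at 0.977 to 0.983, with the lower values among the treated samples. All 6 arrays lay on 1 slide, with untreated arrays in row 1, columns 1 to 3, and 4OHT arrays in row 1, column 4 and row 2, columns 1 and 2. Position on the slide and treatment cannot be told apart.

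Treatment went with broad change in both directions. Of 25426 genes tested with limma, 5156 passed an adjusted p of 0.05 (20.3%), of which 2367 rose (9.31% of genes tested) and 2789 fell (11%). The gene lists below, of known genes, are better read against the 26.3% called among 14851 coding genes. The lists and their members were chosen with earlier results of these data known, so a high share called in a list is not separate support. Some members also passed the filter through 1 group only. In each of the 5156 genes the 3 4OHT arrays lay on one side of the 3 untreated arrays; groups were apart in this way in 10481 genes (41.2%). The median change over all genes tested was -0.004 and the median size of a called change was 0.995. The largest changes were rises: 494 genes rose and 299 fell by at least 4-fold, 98 rose and 11 fell by at least 16-fold, and 33 rose and 1 fell by at least 32-fold. Centring each array on its median instead moved the median of all genes to -0.16 and the split to 1592 rises and 3595 falls. Other settings moved the split the other way, to 2847 rises and 2523 falls with another background correction (normexp). With no filter 3720 rose and 1837 fell, and with probes above background on all 6 arrays 2434 rose and 2411 fell. Which direction had more calls depended on the setting, and small changes are read relative to such shifts. The count of calls fell to 2181 without untreated replicate 1, 2121 without untreated replicate 2, 3381 without untreated replicate 3 and 3194 without 4OHT replicate 2, each with fewer arrays in the fit, and was 5029 and 6087 without 4OHT replicates 1 and 3.

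**Figure D1:**
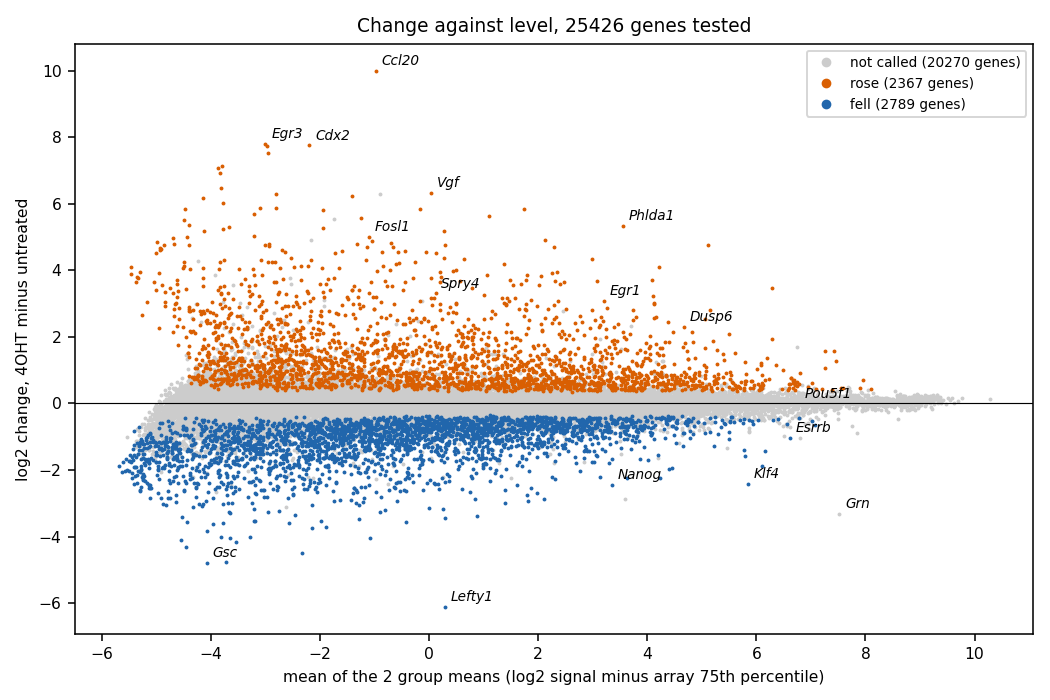
Log2 change (4OHT minus untreated) against the mean of both group means for the 25426 genes tested, with 2367 called rises in orange, 2789 called falls in blue and other genes in grey. The largest changes are rises, led by Ccl20, and Lefty1 is the lowest point; Grn, low on a single 4OHT array, is grey.

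The 3 4OHT arrays differed in how far they lay from the untreated ones. Among 2558 genes called with at least a 2-fold change and measured on all arrays, 4OHT replicate 3 was the closest of the 3 to the untreated mean in 1651 genes, replicate 1 in 548 and replicate 2 in 359. The median distance of the risen genes from the untreated mean was 1.88, 1.85 and 1.64 on replicates 1, 2 and 3, and that of the fallen genes was -1.57, -1.62 and -1.22. The share of genes called was 16%, 23%, 26.4% and 15.7% from the lowest to the highest quartile of mean level.

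The 12 largest rises among genes above background on all 6 arrays were Vgf, Aldh1a3, Ubash3b, Efr3b, Nppb, Esam, Phlda1, Gsx1, Npy, Fosl1, Nos3 and Ankrd66, from 80-fold down to 28.1-fold. Several encode secreted or signalling products. Vgf, a precursor of secreted neuropeptides, stood at -3.54, -3.47 and -2.37 on the untreated arrays and at 3.63, 3.59 and 2.37 on the 4OHT arrays. All 3 treated arrays were far above all untreated ones, and the change was 6.32 (SE 0.46, adjusted p = 0.00084). A second Vgf probe rose by 2.42. Aldh1a3, an enzyme that makes retinoic acid, went from -3.99, -5.12 and -4.51 to 2.23, 1.94 and 0.94 (change 6.25, SE 0.42, adjusted p = 0.00072). Nppb, which encodes B-type natriuretic peptide, went from -1.94, -1.93 and -1.31 to 4.29, 4.77 and 2.65. Its groups did not overlap, replicate 3 of 4OHT was the lowest of the treated arrays, and the change was 5.63 (SE 0.55, adjusted p = 0.0019). Npy, the gene of neuropeptide Y, rose by 5.17 (SE 0.20), from -2.46, -2.22 and -2.25 to 3.00, 3.12 and 2.46.

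Phlda1, an immediate-early gene with a pleckstrin homology-like domain, was at 0.73, 0.67 and 1.27 without treatment and at 6.46, 6.62 and 5.61 with it. The gap between the groups was larger than 4 log2 units on every pair of arrays, and the change was 5.34 (SE 0.31, adjusted p = 0.00054). Nos3, endothelial nitric oxide synthase, went from -0.41, -0.29 and -0.29 to 4.85, 4.78 and 4.13 (change 4.92, SE 0.21). Esam, an adhesion molecule of endothelial junctions, rose by 5.56 (SE 0.23, adjusted p = 0.00023) and was the exception to the order of the treated arrays, with 1.32, 1.45 and 1.81 on replicates 1 to 3. Efr3b, a membrane anchor of a lipid kinase complex, rose by 5.84 (SE 0.29), Gsx1, a homeobox factor of neural progenitors, by 5.27 (SE 0.43) and Ankrd66, an ankyrin repeat gene, by 4.81 (SE 0.29). In 11 of these 12 genes 4OHT replicate 3 was the nearest treated array to the untreated mean. The widest error was that of Ubash3b, a phosphatase that acts on tyrosine kinases, at 1.44, 6.22 and 0.64 on the 4OHT arrays against -3.03, -3.49 and -2.75. Its change of 5.86 had an SE of 1.42 and an adjusted p of 0.035, and the call was lost without any 1 of the untreated arrays or 4OHT replicate 1 (adjusted p 0.05 to 0.12). The other 11 genes kept their calls whichever array was left out.

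The 12 largest falls among genes above background on all 6 arrays were Lefty1, Dkk3, Spic, Tgtp2, Trim47, Foxo6, Chst8, Myo1f, Mvb12b, Prmt8, Kcnj12 and Cpt1a, from 69.4-fold down to 7.89-fold, and each kept its call whichever of the 6 arrays was left out. Trim47 was not called in the fit of all 12 arrays (-3.46, SE 1.51, adjusted p = 0.12). Lefty1, a secreted inhibitor of Nodal, was at 3.28, 3.52 and 3.22 on the untreated arrays and at -3.54, -3.58 and -1.21 on the 4OHT arrays. It was the only gene called lower by at least 32-fold, with a change of -6.12 (SE 0.64, adjusted p = 0.0023), although 4OHT replicate 3 kept more signal than the other treated arrays. Dkk3, a secreted protein of the Dickkopf family, showed the same order, with 0.79, 0.92 and 1.11 untreated and -3.93, -3.83 and -1.55 treated (change -4.04, SE 0.64, adjusted p = 0.0087). Spic, an ETS family transcription factor, fell from 1.21, 1.28 and 1.61 to -2.09, -2.34 and -2.16. Its treated arrays were within 0.25 of each other, and the change was -3.56 (SE 0.15, adjusted p = 0.00023).

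Foxo6, a forkhead transcription factor, fell from 2.50, 2.61 and 2.58 to -0.73, -0.77 and -0.96 (change -3.38, SE 0.11, adjusted p = 0.00023), the smallest error among the 12. Cpt1a, which brings long-chain fatty acids into mitochondria, fell from 2.85, 2.95 and 2.84 to -0.50, -0.55 and 0.76 (change -2.98, SE 0.36). Tgtp2, an interferon-induced GTPase, changed by -3.46, Trim47, a RING-finger ubiquitin ligase, by -3.46, Chst8, a sulfotransferase, by -3.27, Myo1f, an unconventional myosin, by -3.21, Prmt8, an arginine methyltransferase, by -3.14, and Kcnj12, an inward-rectifier potassium channel, by -3.00. Mvb12b, a subunit of the ESCRT-I sorting complex, changed by -3.16 on the probe used, while its other probes gave -0.63 and -0.72. In 10 of the 12 genes 4OHT replicate 3 was again the treated array nearest to the untreated mean.

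**Figure D2:**
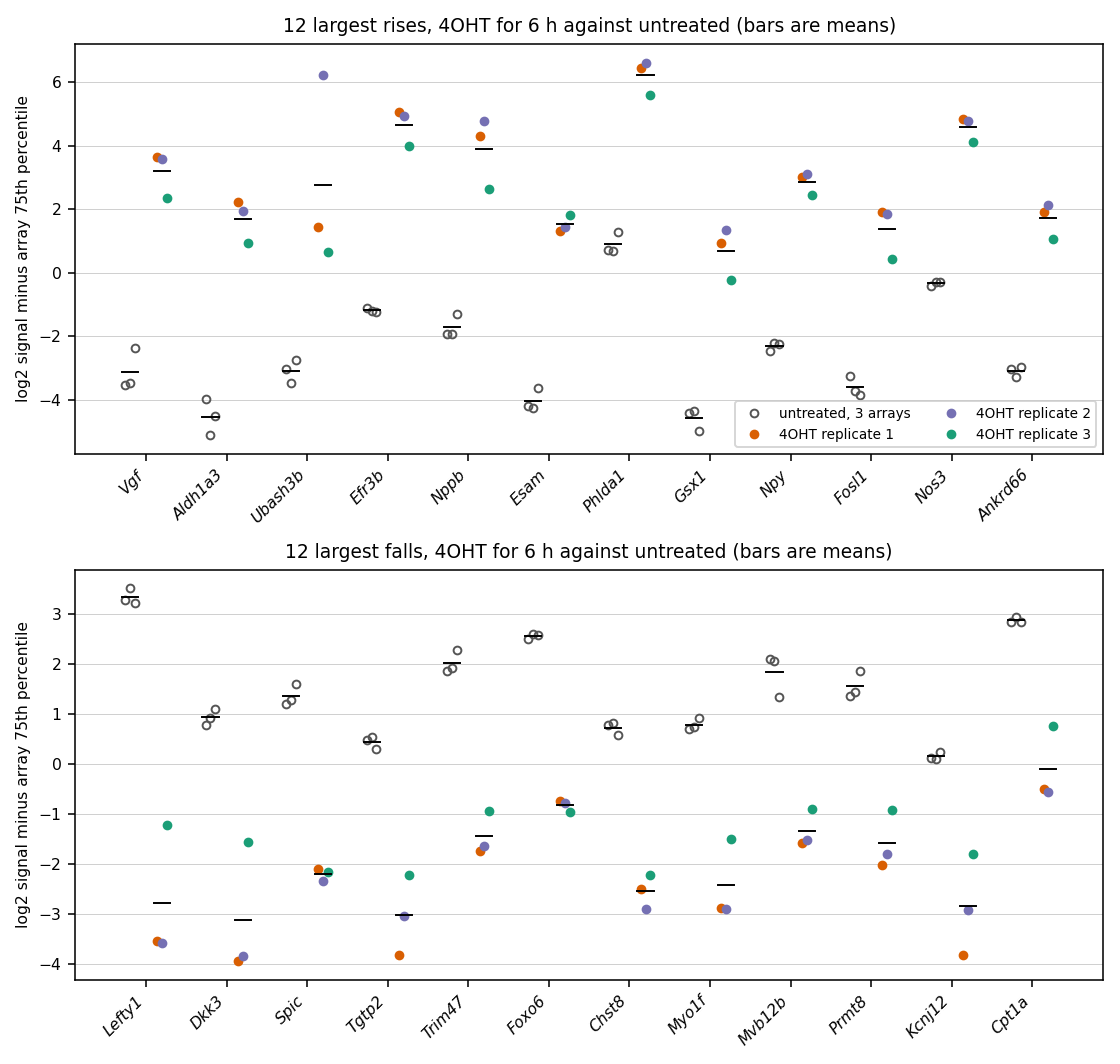
Level on each array (log2 signal minus the array's 75th percentile) for the 12 largest rises and the 12 largest falls, with open circles for the 3 untreated arrays, filled circles coloured by 4OHT replicate and bars for group means. The groups are apart in every gene, Ubash3b has a single high array (6.22), and 4OHT replicate 3 lies nearest to the untreated arrays in 21 of the 24 genes.

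A further 83 called genes, of 86 such genes tested, were not well above background on any untreated array. On none of the 4OHT arrays were 306 called genes, of 760 tested, well above background. The change of such genes is given as a bound. They passed the filter only through the group in which they were well above background, so their adjusted p-values are not separate support. Ccl20, a chemokine that attracts cells with the receptor CCR6, was not well above background on the untreated arrays (-5.79, -5.27 and -6.87) and stood at 4.62, 4.80 and 2.66 with 4OHT. It was at least 586-fold higher (adjusted p = 0.00072), the largest bound in the comparison. Egr3, a zinc-finger transcription factor of the EGR family, was at least 66.8-fold higher (adjusted p = 0.00034), at 1.33, 1.23 and 0.12 on the 4OHT arrays. Grm6, a metabotropic glutamate receptor, was at least 62.9-fold higher, Col6a5, a collagen VI chain, at least 45.5-fold, and Loxl4, a lysyl oxidase that crosslinks collagen, at least 38.9-fold. Cdx2, the homeobox factor of trophoblast and posterior embryo, was at least 115-fold higher (adjusted p = 0.0044), with 2.85, 2.76 and -0.57 on the 4OHT arrays.

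In the other direction the bounds were smaller. Bhmt2, a methyltransferase of methionine metabolism, was at -1.10, -1.25 and -1.51 without treatment, was not well above background with 4OHT, and was at least 8.18-fold lower (adjusted p = 0.00092). Rnf144b, a ubiquitin ligase, was at least 7.88-fold lower, and Gsc, the organiser homeobox gene goosecoid, at least 6.22-fold lower (adjusted p = 0.00055). Prr15l, D430019H16Rik and Calhm5, chosen by size alone, were at least 4.85-fold, 4.75-fold and 4.51-fold lower.

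Some spots stood apart on the treated arrays in blocks of the slide. In blocks of 16 rows by 12 columns, over 10% of spots lay more than 2 log2 units from the median of their group in 3, 8 and 4 blocks of 4OHT replicates 1, 2 and 3 and in none of the 336 blocks of an untreated array, 12 blocks in all. The share reached 59.5% in a block of 4OHT replicate 2. The genes measured there numbered 948, of which 16.2% were called, against 20.4% of the others, and their median range over the 4OHT arrays was 1.06, against 0.452. Because the blocks were marked by spots far from their group's median on 4OHT arrays, the wider range follows from the marking. Neither figure is a separate result. Leaving out the probes of these blocks gave 5148 calls. Ticam1, an adaptor of Toll-like receptors, shows the pattern: it was at -1.61, -1.71 and -1.69 untreated and at -0.67, 7.44 and -2.58 with 4OHT, and its change was not called (adjusted p = 0.45). Nmur1, a neuropeptide receptor (6.46 on 4OHT replicate 2, -1.99 and -2.71 on the others), and Grk5, a kinase of G protein-coupled receptors (6.54, against -1.66 and -1.75), had the same array apart. Ubash3b, Cdx2, Id1, Jdp2, Slc2a1 and Twist1 lie in these blocks with their only probe, and the probes used for Nodal, Cdkn1a, Spp1 and E2f1 lie there too. The part of these spots in their changes was not tested. Single arrays also stood apart outside the blocks. Grn, the progranulin gene, was at 9.22, 9.20 and 9.14 untreated and at -0.70, 9.13 and 9.14 with 4OHT, while its other probes changed by -0.65 and -0.17. St8sia1, a ganglioside sialyltransferase, was at 5.94 on 4OHT replicate 1 and at -3.05 and -2.47 on replicates 2 and 3. Its untreated arrays were at -1.80, -1.92 and -1.64, and its second probe changed by -2.25 (adjusted p = 0.001). Syt10, a synaptotagmin, was at -3.26 on 4OHT replicate 1 against 4.86 and 4.84 on the others.

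**Figure D3:**
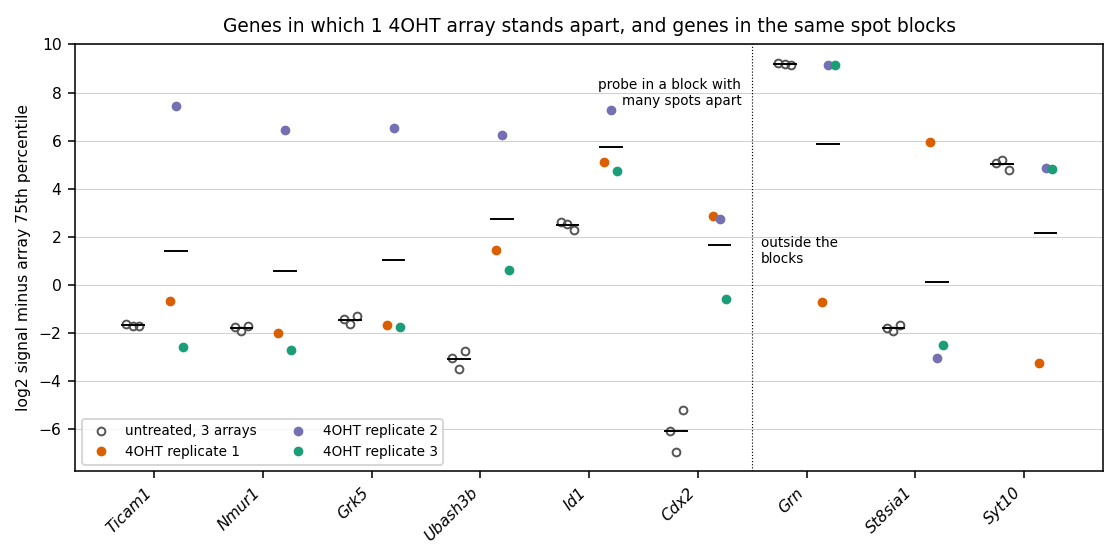
Level on each array for genes in which 1 4OHT array stands apart and for Id1 and Cdx2, whose probes lie in the same spot blocks; symbols as in the plot of the largest changes. Left of the dotted line 4OHT replicate 2 is high in Ticam1, Nmur1, Grk5 and Ubash3b (6.22 to 7.44), and right of it 4OHT replicate 1 is apart in Grn, St8sia1 and Syt10.

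Few transcripts of the ERK cascade itself passed the test. Of 22 cascade genes, from adaptors to kinases, 2 rose and 1 fell. That was 13.6% of the list, against 20.3% of all genes and 26.3% of coding genes, a difference that was not tested. Without 4OHT replicate 1, 4 rose. Mapk3, which encodes ERK1, changed by -0.12 (SE 0.11) and was not called. Shc1, an adaptor of receptor tyrosine kinases, rose by 1.12 (SE 0.11) and Braf, a RAF kinase, by 1.11 (SE 0.16). Rasgrp1, a RAS exchange factor, fell by 3.00 on the log2 scale (SE 0.38), from -1.74, -1.61 and -1.92 to -4.04, -4.62 and -5.59. Only 1 of its 3 4OHT arrays was well above background, and with probes above background on all 6 arrays no fall was called in this list.

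Among 24 receptor tyrosine kinase genes, 21 were tested, 6 rose and 4 fell (47.6% called), with a median change of -0.07. Flt1, a VEGF receptor, was at least 22.3-fold higher (adjusted p = 0.0019). Kdr, another VEGF receptor, went from -2.58, -2.87 and -2.57 to -0.55, 0.20 and 1.13 (change 2.93, SE 0.41), and Fgfr4, an FGF receptor, from -2.11, -2.30 and -2.0 to 0.20, 0.60 and 1.80 (change 3.00, SE 0.41). In both genes the groups were apart and 4OHT replicate 3 was the highest array. Fgfr1, the main FGF receptor of these cells, fell from 3.44, 3.36 and 3.63 to 2.22, 2.23 and 2.79 (change -1.07, SE 0.19, adjusted p = 0.013, or 0.056 without untreated replicate 1). Kit, the stem cell factor receptor, fell by 1.55 on the log2 scale (SE 0.12). The count of falls in this list was 1 without untreated replicate 1, 2 without untreated replicate 2 or 4OHT replicate 2, and 7 without 4OHT replicate 3.

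Of 26 ligand genes, 19 were tested, 6 rose and 3 fell (47.4% called). The median change was 0.09, and -0.06 with median centring. Hbegf, a ligand of the EGF receptor, rose from 1.76, 1.80 and 1.99 to 4.44, 4.74 and 4.17 (change 2.60, SE 0.17). Fgf4, the FGF that the cells make themselves, fell from 6.60, 6.58 and 6.53 to 4.93, 4.84 and 5.24, with the groups well apart (change -1.57, SE 0.14, adjusted p = 0.0013). Kitl, the ligand of Kit, changed by -1.80 (SE 0.30), or by -0.21 with normexp background correction, which was not called. Efna1, an ephrin, fell by 2.21 on the log2 scale (SE 0.40), a call lost without any 1 of the untreated arrays (adjusted p 0.051 to 0.061). Without untreated replicate 1 or 2, 3 ligand genes rose and 2 fell, without untreated replicate 3, 4 rose and 2 fell, without 4OHT replicate 2, 4 rose, and without 4OHT replicate 3, 5 rose and 5 fell.

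Of the AP-1 subunits, which pair to form the transcription factor AP-1, 6 of 13 rose and 2 fell. That was 61.5% called, against 26.3% of coding genes, and the median change was 0.99. Fos, the founding subunit, went from -0.44, -0.33 and -0.39 to 1.92, 1.87 and 1.05 (change 2.0, SE 0.25, adjusted p = 0.0039). Fosl1 and Fosl2, which encode its relatives FRA1 and FRA2, rose more: Fosl1 from -3.25, -3.72 and -3.85 to 1.91, 1.84 and 0.42 (change 4.99, SE 0.43) and Fosl2 from -4.38, -3.63 and -3.97 to 0.91, 0.98 and -0.29 (change 4.53, SE 0.39). All 3 genes were lowest, among the treated arrays, on 4OHT replicate 3. Jdp2, an AP-1 repressor, fell from 0.19, 0.16 and -0.33 to -3.22, -2.92 and -1.82 (change -2.66, SE 0.38), on a probe inside the blocks described above. Jun, chosen after its values were seen, changed by 1.67 with a wider error (SE 0.51, adjusted p = 0.069), at 0.49, 0.41 and -0.27 untreated and 1.98, 2.82 and 0.85 treated. Without the marked blocks 6 of 11 subunits rose and 1 fell, and 1 subunit was called lower without any 1 untreated array or without 4OHT replicate 2 or 3.

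Of 24 other immediate-early genes, 16 rose and 3 fell, 79.2% called, and the median change was 1.13. Egr1, a zinc-finger factor that responds to ERK within minutes in many cells, was at 1.51, 1.69 and 1.82 without treatment and at 5.03, 4.79 and 4.42 after 6 h. The groups were apart by more than 2 log2 units, and the change was 3.07 (SE 0.19, adjusted p = 0.00056). Ier5, another immediate early response gene, went from -0.26, -0.09 and -0.40 to 3.43, 3.37 and 3.13 (change 3.56, SE 0.14, adjusted p = 0.00023). Not every member rose. Egr4, of the same family as Egr1 and Egr3, fell by 0.91 on the log2 scale, Srf, the serum response factor, fell by 0.45, and Rhob, a small GTPase, fell by 1.75; these 3 were named after their values were seen. The YAP and serum response target Ccn2 was at 2.94, 2.92 and 2.89 and at 2.87, 2.97 and 2.71, a change of -0.07 that was not called. Leaving out each array in turn gave 13 to 16 rises and 1 to 3 falls, with 1 fall without untreated replicate 2 or 3 and 2 without untreated replicate 1 or 4OHT replicate 1 or 2.

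Genes of the negative feedback on ERK mostly rose or were not called. Of 22 feedback inhibitors, 11 rose and 1 fell (54.5% called), with a median change of 1.01. Dusp6, a phosphatase of ERK in the cytoplasm and a common readout of ERK activity, was at 3.35, 3.38 and 3.83 without treatment and at 5.78, 5.68 and 6.02 with it (change 2.31, SE 0.18, adjusted p = 0.00089). Spry4, a Sprouty inhibitor of receptor signalling, went from -1.46, -1.73 and -1.41 to 2.09, 1.92 and 1.30 (change 3.30, SE 0.23). The nuclear phosphatase genes Dusp2 and Dusp4 rose by 3.75 (SE 0.30) and 3.66 (SE 0.23). Dusp5, a nuclear ERK phosphatase, was at -4.78, -5.55 and -5.10 untreated, where 1 of 3 arrays was well above background, and at -1.31, -0.85 and -1.65 with 4OHT (change 3.87, SE 0.27). In the 4 DUSP genes named here the groups were apart. Dusp10, whose probe lies in a marked block, was at 0.55 on 4OHT replicate 2 and at -3.07 and -3.03 on the others and was not called (adjusted p = 0.33). The rises numbered 10 to 12 whichever array was left out, and 2 falls were called without 4OHT replicate 3 but no fall without any 1 untreated array or 4OHT replicate 2.

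**Figure D4:**
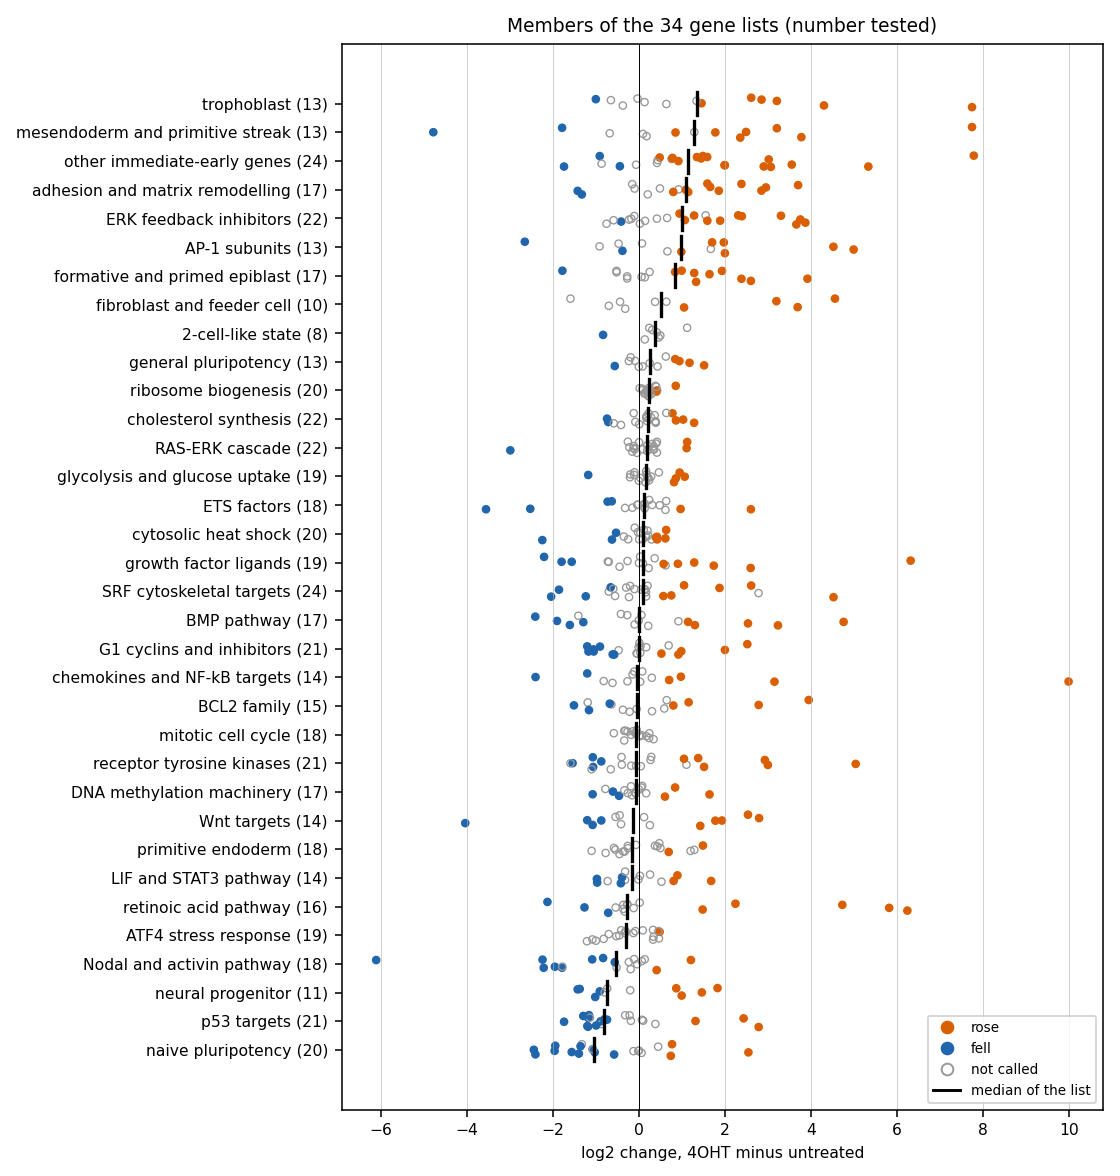
Log2 change (4OHT minus untreated) of each tested member of the 34 gene lists, ordered by median; filled orange and blue points are called rises and falls, open points were not called, and the black bar is the list's median. Trophoblast, mesendoderm, immediate-early, adhesion and ERK feedback lists have the highest medians (1.01 to 1.34), and naive pluripotency the lowest (-1.05).

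Upstream sequences of early genes that rose together are shown because serum response factor binds a motif known as the CArG box near the starts of many of them. RefSeq promoters of build GRCm38.p6 were matched by symbol for 12126 of the genes tested, and 24 of the 36 genes named above as largest rises, falls and bounds had an entry. Each sequence holds the 150 bases before the annotated start, 5′ to 3′ on the gene's strand. Capitals mark the CArG boxes in Zfp36 (chr7:28379229-28379378, minus strand) and Dusp5 (chr19:53528995-53529144, plus strand), the letters TGACGTCA in Dusp1 (chr17:26508473-26508622, minus strand) and TATAAA in Fos (chr12:85473740-85473889, plus strand).
Zfp36: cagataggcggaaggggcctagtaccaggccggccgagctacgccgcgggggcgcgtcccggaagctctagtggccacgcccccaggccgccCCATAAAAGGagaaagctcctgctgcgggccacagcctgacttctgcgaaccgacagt
Dusp5: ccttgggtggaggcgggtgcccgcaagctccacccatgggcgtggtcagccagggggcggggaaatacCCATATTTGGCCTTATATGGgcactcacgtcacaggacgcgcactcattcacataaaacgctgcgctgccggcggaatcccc
Dusp1: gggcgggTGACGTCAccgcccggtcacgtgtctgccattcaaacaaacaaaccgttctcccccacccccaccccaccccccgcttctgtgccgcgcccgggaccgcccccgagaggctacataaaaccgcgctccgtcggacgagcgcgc
Fos: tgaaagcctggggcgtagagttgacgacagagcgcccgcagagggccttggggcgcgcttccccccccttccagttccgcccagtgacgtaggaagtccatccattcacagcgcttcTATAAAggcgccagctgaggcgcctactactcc
Zfp36, which encodes an RNA-binding protein that shortens the life of messenger RNAs, rose by 1.99 (SE 0.14), from -0.02, -0.07 and 0.32 to 2.05, 2.13 and 2.01. Its CArG box begins 58 bases before the start. Dusp5 holds a pair of adjoining CArG boxes, beginning 82 and 72 bases before the start. Dusp1, a nuclear phosphatase of MAP kinases, rose by 2.39 (SE 0.15), from 2.14, 2.37 and 2.28 to 4.70, 4.87 and 4.41. The 4 genes printed were chosen after their values and sequences were seen.

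The same letters were searched in the 250 bases before each start, in 15287 promoters of the genes tested. The CArG box, on both strands, was in 1.28% of all promoters, in 2.54% of the 355 promoters of genes that rose at least 4-fold and in 2.43% of the 247 promoters of genes that fell at least 4-fold. The AP-1 letters TGANTCA, on both strands, were in 4.73% of all promoters, 9.3% of those of genes that rose and 2.43% of those of genes that fell by that much. TGACGTCA, on both strands, was in 2.4% of all promoters and in 1.13% and 1.21% of those of genes that rose and fell at least 4-fold. The ETS letters CCGGAAGT, on both strands, were in 5.05%, 1.13% and 0.81% of the same 3 sets, and TATAAA, on the gene's strand, in 4.87%, 7.04% and 6.88%. Of the 19 promoters of AP-1 and other immediate-early genes that rose, 5 held a CArG box, 4 of them neighbouring starts of Egr2. These shares describe letters in a window, with each promoter counted once however many matches it held, and were not tested.

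ETS transcription factors, several of which ERK phosphorylates or induces, moved both ways: 2 of 18 tested rose and 4 fell. That was 33.3% called, against 26.3% of coding genes, a difference that was not tested. Etv4, an FGF and ERK target, went from 2.75, 2.66 and 3.18 to 5.47, 5.45 and 5.49 (change 2.60, SE 0.16), and Etv6, a repressor, rose by 0.97 (SE 0.12). Elf3, an epithelial ETS factor, fell by 2.53 on the log2 scale (SE 0.36). Etv5, the close relative of Etv4 and named after its values were seen, was at 6.39, 6.44 and 6.51 untreated and at 6.64, 6.52 and 6.57 treated, a change of 0.13 (SE 0.10) that was not called. Leaving out any 1 untreated array, or 4OHT replicate 2, left 2 falls in this list.

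Naive pluripotency genes went mostly down. Of 20 tested, 10 fell and 3 rose (65% called), with a median change of -1.05 against -0.004 for all genes. Nanog, the homeobox factor that sustains self-renewal, was at 4.61, 4.65 and 4.46 on the untreated arrays and at 1.99, 1.91 and 2.47 on the 4OHT arrays. The groups were more than 1.9 log2 units apart, and the change was -2.45 (SE 0.17, adjusted p = 0.0008). Its second probe did not move with it (0.51, adjusted p = 0.51). Klf4, a Krüppel-like factor, fell from 7.14, 7.14 and 6.88 to 3.97, 4.54 and 5.42 (change -2.41, SE 0.36, adjusted p = 0.0073). Esrrb, an orphan nuclear receptor, fell less, from 7.12, 7.09 and 7.18 to 5.85, 5.98 and 6.47 (change -1.03, SE 0.18, adjusted p = 0.012, and 0.056 or 0.054 without untreated replicate 1 or 2). Tfcp2l1, a partner of these factors, changed by -1.96 (SE 0.50, adjusted p = 0.041) and lost its call when any 1 array but 4OHT replicate 3 was left out (adjusted p 0.097 to 0.13). Gbx2, a homeobox factor, went the other way, from 0.94, 0.92 and 1.18 to 3.54, 3.43 and 3.70 (change 2.55, SE 0.13). Zfp42, the marker gene of REX1, named after its values were seen, was at 7.14, 7.16 and 7.01 and at 7.32, 7.04 and 6.90 and was not called. The number of falls was 6 without untreated replicate 1 or 2.

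Changes of the core factors were not called. Pou5f1, which encodes OCT4, was at 6.73, 6.82 and 6.79 and at 6.35, 6.93 and 7.05 (change 0.00, SE 0.20), and Sox2 at 5.37, 5.38 and 5.28 and at 5.69, 5.59 and 5.49 (change 0.25, SE 0.11, adjusted p = 0.17). Of 13 general pluripotency genes 4 rose and 1 fell (38.5% called, against 26.3% of coding genes), with a median change of 0.25. The rises included Dppa4 and Dppa2, which encode partner chromatin proteins (1.18, SE 0.11, and 0.94, SE 0.12), and Utf1, a chromatin factor (0.84, SE 0.15). Utf1 lost its call without untreated replicate 1 or 2 (adjusted p 0.063 and 0.062). Without untreated replicate 1 or 2, or 4OHT replicate 2, the fall was not called. Dppa5a, a pluripotency marker named after its values were seen, was at 9.68, 9.65 and 9.56 untreated and 9.61, 9.64 and 9.63 treated. It and Pou5f1 and Sox2 were far above the arrays' 75th percentile in both groups, as the label of embryonic stem cells implies.

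Genes of the formative and primed epiblast, the states that follow the naive one, rose in 9 of 17 cases and fell in 1. That was 58.8% called, against 26.3% of coding genes, and the median change was 0.84. Pou3f1, which encodes the POU factor OCT6, went from 0.36, 0.38 and 0.14 to 4.52, 4.40 and 3.73 (change 3.92, SE 0.23, adjusted p = 0.00053). Cdh2, N-cadherin, went from -0.09, 0.15 and 0.62 to 2.65, 2.67 and 2.51 (change 2.38, SE 0.20), and Lef1, a nuclear partner of beta-catenin, from 0.35, 0.28 and -0.69 to 2.08, 2.20 and 1.45 (change 1.93, SE 0.34). The treated arrays were above the untreated ones in all 3 genes. Of 17 genes of DNA methylation and demethylation 3 rose and 3 fell (35.3% called, against 26.3% of coding genes, not tested). Dnmt3a and Dnmt3b, the de novo methyltransferases, rose by 1.64 (SE 0.13) and 0.84 (SE 0.11), and Prdm14, which represses them in naive cells, fell by 1.08 on the log2 scale (SE 0.12). The falls in this list numbered 1 without untreated replicate 1 or 2 or 4OHT replicate 2, and 2 without any other array.

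Genes of the mesendoderm and primitive streak, the first embryonic lineage to leave the epiblast, rose in 7 of 13 tested cases and fell in 2 (69.2% called). Their median change was 1.29. Besides Cdx2, Evx1, a homeobox gene of the streak, went from -1.77, -1.97 and -1.81 to 2.21, 2.08 and 1.5 (change 3.78, SE 0.21), and Eomes, a T-box factor, from -2.62, -2.78 and -2.31 to 0.91, 0.83 and 0.17 (change 3.21, SE 0.24). The falls were Gsc, given above, and Nodal. The trophoblast list, which shares Cdx2 and Eomes with it, had 6 rises and 1 fall among 13 tested (53.8% called) and a median of 1.34. In it, Tead4, a partner of YAP, went from 0.73, 0.60 and 0.95 to 3.92, 3.73 and 3.19 (change 2.85, SE 0.22). Hand1, a trophoblast and mesoderm factor, was at -7.34, -5.44 and -4.97, with 1 of 3 untreated arrays well above background, and at -1.57, -2.06 and -1.18 (change 4.31, SE 0.63). The summed linear level of the 16 trophoblast genes on the array was 20.8 to 26.1 on untreated arrays and 85.2, 86.9 and 45.6 on the 4OHT arrays. In bulk RNA, more cells of a type and more RNA per cell cannot be told apart. Without untreated replicate 2, 4 mesendoderm genes rose, and 1 fell without the marked blocks. The trophoblast fall was called without 4OHT replicate 3 but not without any other array. Cdx2 and Gsc passed the filter through 1 group only, so their calls are not separate support for the shares of these lists. Requiring signal above background on every array left 7 mesendoderm genes, of which 4 rose and 1 fell (median 1.29). The same rule left 10 trophoblast genes, of which 4 rose and 1 fell (median 0.99).

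Of 18 primitive endoderm genes tested, 2 rose, and these were the only calls (11.1%): Lrp2, the endocytic receptor megalin (1.49, SE 0.14), and Lamb1, a laminin chain (0.69, SE 0.14), whose call was lost without untreated replicate 1 or 2 (adjusted p 0.085 and 0.089). Without untreated replicate 1 or 2 the list had 1 rise, without untreated replicate 3 it had 3 rises, and without 4OHT replicate 3 it had 3 rises and 2 falls. Of 11 neural progenitor genes 4 rose and 4 fell (72.7% called). Pax6, a neural homeobox factor, rose by 1.83 (SE 0.14) and Nes, the filament protein nestin, by 1.46 (SE 0.22). Hes5, a Notch target, changed by -1.43 (SE 0.26) at low signal. Zic1 was not well above background on any 4OHT array and was at least 1.1-fold lower. With normexp background correction Hes5 changed by -0.33 and Zic1 by 0.10, neither called. Hes5 also lost its call without untreated replicate 1 or 2 (adjusted p = 0.064). Requiring signal above background on every array left 7 neural genes, of which 4 rose and 2 fell. Leaving out untreated replicate 1 or 2 left 2 rises and 1 fall in the neural list, and leaving out untreated replicate 3 or 4OHT replicate 2 left 2 of each.

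Markers of fibroblasts, which serve as feeder cells in such cultures, moved as well. Of 14 genes 10 were tested and 4 rose (40% called). They were S100a4, a calcium-binding protein (4.56, SE 0.16), Thy1, a surface glycoprotein (3.69, SE 0.22), Twist1, a mesenchymal factor (3.20, SE 0.36, in a marked block), and Vim, the filament protein vimentin (1.05, SE 0.25). Vim lost its call without any 1 array other than untreated replicate 3 (adjusted p 0.064 to 0.12). Collagen genes, which define fibroblasts, were not called: Col1a1 was at -4.42, -4.59 and -3.71 and at -4.78, -4.79 and -4.11, Col1a2 changed by 0.64 without a call, and Col3a1, Col6a1, Lum and Postn did not pass the filter on background. The summed linear level of the 14 genes was 101 to 140 untreated and 155 to 209 with 4OHT. Such a sum is weighted towards bright genes, and the rises of Vim and Thy1 add to it. It does not show that the markers rose as a set. Members well above background numbered 10 on each untreated array and 8, 7 and 10 on 4OHT replicates 1, 2 and 3. Changes of the tested members ran from -1.6 to 4.56. The part of other cells in the changes of these genes was not tested.

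Genes of the Nodal and activin pathway, which signals through SMAD2 and SMAD3, fell in 8 of 18 tested cases and rose in 2 (55.6% called). Their median change was -0.54. Next to Lefty1, Lefty2 fell from 3.25, 3.48 and 3.35 to 0.73, 1.09 and 1.62 (change -2.22, SE 0.23, adjusted p = 0.0023). Smad3 fell from 1.66, 1.62 and 2.05 to -0.59, -0.56 and 0.61 (change -1.96, SE 0.35, adjusted p = 0.013, and 0.052 without untreated replicate 1 or 3). Nodal itself, the ligand, was at 4.32, 4.23 and 4.04 and at 3.03, 2.07 and 2.12 (change -1.79, SE 0.28), on a probe in the marked blocks. Without those blocks 7 of 17 genes fell; without untreated replicate 1, 5 fell. The rises numbered 1 without any 1 untreated array or 4OHT replicate 2.

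Among 17 BMP pathway genes there were 5 rises and 4 falls (52.9% called, against 26.3% of coding genes), with a median of 0. Bmp4, a ligand, went from 3.96, 3.97 and 3.44 to 6.46, 6.42 and 6.10 (change 2.54, SE 0.19), and Msx1, a homeobox target, from -2.18, -1.93 and -2.15 to 3.23, 2.97 and 1.83 (change 4.76, SE 0.36). Id1, an inhibitor of basic helix-loop-helix factors, was at 5.12, 7.30 and 4.76 with 4OHT against 2.63, 2.56 and 2.29 (change 3.23, SE 0.65), on a probe in the marked blocks. It lost its call without any 1 untreated array (adjusted p 0.069 to 0.071). Id4, of the same family, changed by -2.41 (SE 0.49), a call lost without any 1 untreated array or 4OHT replicate 2 (adjusted p 0.064 to 0.074). Without any 1 of those 4 arrays, 1 gene of the list fell.

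Of 14 Wnt targets 5 rose and 4 fell (64.3% called). At the upper end Sp5, a direct target of beta-catenin, went from -2.04, -2.05 and -1.06 to 1.25, 0.82 and 1.17 (change 2.79, SE 0.30). Dkk3 lay at the other end. The list's median was -0.15 and changed sign under several settings, for example to 0.17 with normexp correction. The falls numbered 1 without untreated replicate 1 or 2 and 2 without untreated replicate 3. Of 14 genes of LIF and STAT3 signalling, which keeps mouse stem cells naive, 3 rose and 4 fell (50% called). Socs2, a suppressor of cytokine signalling, rose by 1.68 (SE 0.17) and Bcl3, an NF-kB cofactor, by 0.89 (SE 0.14, adjusted p = 0.053 without untreated replicate 2). Cish, a cytokine response gene, changed by -0.97 (SE 0.19), and no member was called lower without untreated replicate 1 or 2. Without untreated replicate 3 or 4OHT replicate 2, 1 was called lower, and 2 or 1 were called higher without untreated replicate 1 or 2.

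The retinoic acid pathway held some of the largest rises: 5 of 16 tested genes rose and 3 fell (50% called), and the median was -0.27. Besides Aldh1a3, Cyp26a1, which breaks retinoic acid down, went from -5.21, -4.50 and -4.88, with 1 of 3 arrays well above background, to 1.13, 1.25 and 0.51 (change 5.82, SE 0.26, adjusted p = 0.00029). Rxrg, a retinoid X receptor, was at least 24.1-fold higher (adjusted p = 0.00061). The count of rises was 5 whichever array was left out, while the falls numbered 1 to 3. There was 1 fall without untreated replicate 1 or 2 or 4OHT replicate 1, and 2 without untreated replicate 3 or 4OHT replicate 2. Rxrg passed the filter through the 4OHT arrays only. Requiring signal above background on every array left 13 genes of this list, of which 3 rose and 3 fell.

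Adhesion and matrix genes rose in 10 of 17 tested cases and fell in 2 (70.6% called), with a median change of 1.09. Plaur, the urokinase receptor, went from 2.25, 2.20 and 2.27 to 6.14, 6.25 and 5.44 (change 3.70, SE 0.22), and Itga3, an integrin chain, from -0.12, -0.12 and 0.03 to 3.32, 3.03 and 2.31 (change 2.95, SE 0.26). Mmp9, a secreted protease, was at least 3.77-fold higher (adjusted p = 0.012). Without untreated replicate 2, 6 of these genes rose, and no fall was called without untreated replicate 1 or 2 (1 without 4OHT replicate 2 or 3). Of 24 cytoskeletal genes that serum response factor regulates, 6 rose and 4 fell (41.7% called). Fhl2, a LIM-domain cofactor, went from -2.17, -2.35 and -1.89 to 2.59, 2.76 and 1.83 (change 4.53, SE 0.27), Krt18, a keratin, rose by 2.61 (SE 0.37) and Anxa2, an annexin, by 1.87 (SE 0.17), while Lima1, an actin-binding protein, fell by 2.05 on the log2 scale (SE 0.18). With median centring 3 rose and 6 fell. Without untreated replicate 1 or 2 or 4OHT replicate 2, 3 rose and 1 to 2 fell.

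Among 14 chemokine and NF-kB target genes tested, 4 rose and 2 fell (42.9% called). The bound for Ccl20 is given above. Il11, a cytokine, went from -3.52, -3.80 and -3.79 to 0.31, 0.30 and -2.26; the groups did not overlap, but 4OHT replicate 3 was far below the other treated arrays (change 3.15, SE 0.70, adjusted p = 0.026). Its call was lost when any 1 array but 4OHT replicate 3 was left out (adjusted p 0.064 to 0.093). Cxcl12, a chemokine, and Birc3, an inhibitor of apoptosis, changed by -2.41 (SE 0.42) and -1.21 (SE 0.26) at low signal and were not called with normexp correction (-0.31 and -0.03). Both lost their calls without untreated replicate 1 or 2, when 2 genes of the list were called higher and no gene lower. Without untreated replicate 3, 2 were called higher, and without 4OHT replicate 2, 1 was called lower. Of the 10 members kept when signal above background was required on every array, 3 rose and no gene fell.

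Of 21 cell cycle genes of the G1 phase 5 rose and 7 fell, 57.1% called against 26.3% of coding genes. Their median change was -0.01. Myc, a growth-promoting transcription factor, went from 2.03, 2.15 and 2.55 to 4.25, 4.37 and 4.11 (change 2.0, SE 0.17), and Ccnd2, cyclin D2, from 1.60, 1.59 and 2.14 to 3.71, 4.23 and 4.96 (change 2.52, SE 0.34), with groups apart in both. Ccnd1, cyclin D1, changed by -1.20 (SE 0.23), a call lost without any 1 untreated array (adjusted p 0.061 to 0.067). Cdkn1a, the p21 inhibitor, fell from 1.89, 1.82 and 1.90 to 1.01, 0.42 and 0.66 (change -1.18, SE 0.17), on a probe in the marked blocks. Without untreated replicate 1 or 2, 3 G1 genes rose and 3 fell; without untreated replicate 3 or 4OHT replicate 2, 3 rose. None of 18 mitotic genes was called by limma, 3 had an unadjusted p below 0.05, and the median was -0.06; with median centring 2 were called lower, and with normexp correction 1.

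Of 21 p53 targets 10 fell and 3 rose (61.9% called), with a median change of -0.81. The members with the largest changes were Pmaip1, which encodes the death-promoting protein NOXA (2.79, SE 0.17), Perp, a desmosome protein (2.43, SE 0.26), Gadd45a, a growth arrest gene (1.31, SE 0.21), and Gdf15, a secreted stress factor (-1.74, SE 0.46). Gdf15 lost its call when any 1 array but 4OHT replicate 3 was left out (adjusted p 0.087 to 0.15). The falls numbered 5 without untreated replicate 1 and 4 without untreated replicate 2. In the BCL2 family, which sets the threshold of apoptosis, 4 of 15 rose and 3 fell (46.7% called). Bcl2l11, the death-promoting BIM, went from 0.40, 0.48 and 0.24 to 4.68, 4.45 and 3.84 (change 3.95, SE 0.23, adjusted p = 0.00054), and its other 3 probes rose by 2.26 to 2.91. The related death genes Bbc3, which encodes PUMA, and Bmf changed by -1.16 (SE 0.23) and -1.51 (SE 0.23). Bbc3 lost its call without untreated replicate 1 or 2 or 4OHT replicate 2 (adjusted p 0.055 to 0.075), a second Bmf probe changed by 0.15, and 1 family member was called lower without untreated replicate 1 or 2.

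Among the stress and metabolic lists the share called ran from 5.26% to 40%, against 20.3% of all genes and 26.3% of coding genes. Cytosolic heat shock genes, 20 in all, had 5 rises and 3 falls. Hspb8, a small heat shock protein, fell from 1.94, 2.0 and 1.82 to -0.60, -0.36 and -0.04 (change -2.25, SE 0.17), while Bag3, a chaperone cofactor (0.63, SE 0.12), and Hsph1, a large HSP70 relative (0.61, SE 0.15), rose by little and lost their calls with median centring and without untreated replicate 1 or 2 or 4OHT replicate 2. Dnajb4, another cofactor, changed by -0.63 (SE 0.13), or -0.03 with normexp correction. With median centring, and without untreated replicate 1 or 2 or 4OHT replicate 2, no gene of this list was called higher. Of 19 targets of the stress factor ATF4, 1 rose, Slc3a2, an amino acid transporter chain (0.48, SE 0.12), and it was not called when any 1 array was left out. Falls in this list numbered 4 without untreated replicate 3, 1 without 4OHT replicate 1 or 3, and 3 with median centring. Of 19 glycolysis genes 4 rose and 1 fell: Pdk1, a kinase that inhibits pyruvate dehydrogenase (0.86, SE 0.10), Pfkfb4, a regulator of glycolysis (0.95, SE 0.16), and Slc2a1, the glucose transporter GLUT1 (1.06, SE 0.18, in a marked block), rose, and Hk1, a hexokinase, changed by -1.18 (SE 0.22), with a second probe at 0.33. Pfkfb4 lost its call without untreated replicate 1 or 2 (adjusted p 0.051 and 0.057), and Hk1 without any 1 untreated array (0.054 to 0.06), which left 2 rises without untreated replicate 1 or 2. Gapdh, the glycolytic enzyme often used as a reference, was at 9.27, 9.26 and 9.25 and at 9.38, 9.14 and 9.25 (change 0.00, SE 0.11).

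Among 22 cholesterol synthesis genes, 4 were called higher and 2 lower (27.3%, near the share of coding genes), and the median change was 0.21. Msmo1, a sterol oxidase, rose by 0.86 (SE 0.17) and Idi1, an isomerase of the pathway, by 0.78 (SE 0.19). Without untreated replicate 1 or 2 or 4OHT replicate 2, 1 gene of the list was called higher and none lower; the lost calls included Idi1 and Msmo1 (adjusted p 0.058 to 0.14). Idi1 also lost its call without 4OHT replicate 1 or 3, and no fall was called without untreated replicate 3 or 4OHT replicate 1. All 20 ribosome biogenesis genes had a change above 0, from 0.02 to 0.86 with a median of 0.23, or 0.08 with median centring, but 3 passed the test: Ddx21, an RNA helicase of the nucleolus (0.86, SE 0.11), Nop58 (0.41, SE 0.10) and Rrp9 (0.40, SE 0.09), which encode proteins of small nucleolar ribonucleoproteins. Nop58 and Rrp9 lost their calls without any 1 untreated array or 4OHT replicate 2 (adjusted p 0.074 to 0.16), Nop58 also without 4OHT replicate 3, and the other Nop58 probes gave 0.07 to 0.14.

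Non-coding transcripts were measured as well. Of 1415 genes with a non-coding RefSeq accession 99 rose and 114 fell, 15.1%, against 26.3% of 14851 genes with a coding accession; the difference in share was not tested. The 4 largest changes among non-coding genes above background on all 6 arrays were rises. Platr5, a transcript named for its association with pluripotency, went from -3.94, -3.84 and -2.78 to -0.22, -0.09 and -0.02 (change 3.41, SE 0.32, adjusted p = 0.0016). The long non-coding genes 4933439C10Rik, 1700029M20Rik and Gm21283 rose by 2.94 (SE 0.18), 2.91 (SE 0.24) and 2.38 (SE 0.23).

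The series also held 4OHT treatment in cells given MG132, at 1 µM for 30 min and then 6 h. A test of whether the response itself differed is therefore possible, with a limit. Cells with MG132 alone were also kept for 6 h, while untreated cells are titled 0 h. Hours in culture thus enter the response without MG132 only, and cannot be told apart from an effect of MG132 on the response. In a fit of all 12 arrays the responses differed in 1736 of 26841 genes (6.47%). The largest rises and falls were picked for the size of their change without MG132 on these same arrays. That choice by itself favours smaller changes with MG132. With that limit, of the 12 largest rises 8 differed, each smaller with MG132, and of the 12 largest falls 10 differed, each smaller with MG132. Of these, Fosl1, Dkk3, Tgtp2, Myo1f, Kcnj12 and Cpt1a lost the call in some fits with 1 array left out. Lefty1, for example, changed by -6.12 (SE 0.54) without and by -0.23 (SE 0.54) with MG132, where cells with MG132 alone were already at -0.70 against 3.34 in untreated cells. Egr1 and Spry4 went the other way: Egr1 rose by 3.07 (SE 0.22) without and by 8.33 (SE 0.22) with MG132, starting from 1.67 and -1.33. Dusp6 rose by 2.31 and 2.18 (SE 0.19 each), a difference of -0.13 (SE 0.26, adjusted p = 0.83). The arrays with both compounds, and 1 of the 3 with MG132 alone, lay on a second slide, and with the slide as a block 762 differences were called. The count was also lower without untreated replicate 1 or 2, MG132 replicate 1 or 2, or replicate 1 or 2 of both compounds (999 to 1114).

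**Figure D5:**
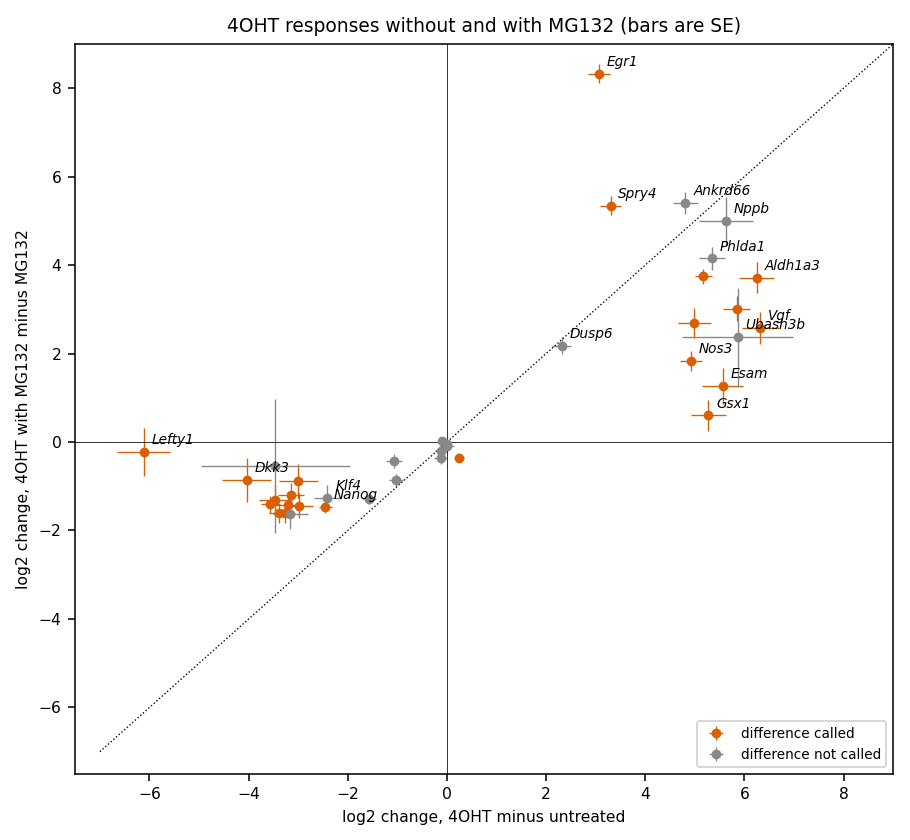
Log2 change with 4OHT in cells without MG132 (horizontal) and with MG132 (vertical) for the genes named as largest or fixed, with SE bars from the fit of 12 arrays and a dotted line of equal response; orange marks genes whose responses differed. Most of the largest changes, picked for their size without MG132, lie nearer to 0 with MG132. Egr1 (8.33) and Spry4 (5.34) lie above the line.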

How the data were processed

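Cy3-labelled RNA of each sample was measured on a one-colour Agilent array with 62976 spots, 3671 of them controls. The deposited scanner files give the processed intensity, which per the file headers Feature Extraction 11.0.1.1 made by subtracting background within each array, with no scaling between arrays; the deposited table of the whole series holds the same intensities (largest difference 0). The log2 of this intensity minus the array's 75th percentile over 56605 non-control probes was analysed. Probes with a RefSeq symbol numbered 32994 (58.3%); the others keep their accession and are counted but not named. Probes were tested if the scanner software marked them as well above background throughout either group of 3 arrays, and each gene was represented by 1 probe. Groups were compared with limma 3.58.1 (lmFit and eBayes) in R 4.3.3, with 4 residual degrees of freedom and Benjamini-Hochberg adjustment over all 25426 genes; adjusted p-values are limma's throughout, and a gene is called below 0.05. An exact test of 3 against 3 arrays of a single gene cannot go below p = 0.1. A probe not well above background on any array of a group has a bound, the bright group's mean over the dim arrays' lowest signal well above background or the probe's own, whichever is higher. The script was tested on simulated data.

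Named were the 12 largest rises and falls measured on all arrays, the 6 largest bounds each way, up to 4 called members of each of 34 gene lists (617 genes), the 6 widest ranges over the 4OHT arrays, the 4 largest called non-coding genes and 14 genes fixed by name. Some genes that this rule takes are not reported here. The members and lists were chosen with earlier results of these data known. Whether the response to 4OHT differed between cells with and without MG132 was tested as an interaction in a fit of all 12 arrays. Alternatives covered background correction (normexp), normalization, filters, probe choice, array weights, the replicate number as a block, the slide and each array left out; leaving out the marked spot blocks, the percentile over spots, the choice of probe on untreated arrays and the rule on overlap were added after seeing the data. Figures were drawn with matplotlib 3.10.9.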

Additional observations from a re-analysis of the deposited data

Results flagged for a closer look

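For 22 of the genes described above the change with 4OHT differed between cells with and without MG132 by the interaction test of limma over all 12 arrays, in which 6.47% of genes passed. Each difference is the change with MG132 minus the change without it, on the log2 scale. Apart from Egr1, Spry4, Nanog and Sox2, these genes were picked for a large change without MG132 on the same arrays. That choice favours a smaller change with MG132. Untreated cells are titled 0 h and cells with MG132 alone were kept for 6 h, so hours in culture are not balanced in this test. Among genes that rose without MG132, the difference was -3.74 for Vgf, -2.53 for Aldh1a3, -2.83 for Efr3b, -4.3 for Esam, -4.67 for Gsx1, -1.43 for Npy, -2.3 for Fosl1 and -3.09 for Nos3. Gsx1, a homeobox gene, for example rose by 5.27 without MG132 and changed by 0.60 with it.

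Among genes that fell without MG132, the difference was 5.89 for Lefty1, 3.19 for Dkk3, 2.15 for Spic, 2.15 for Tgtp2, 1.77 for Foxo6, 1.66 for Chst8, 1.8 for Myo1f, 1.95 for Prmt8, 2.12 for Kcnj12, 1.54 for Cpt1a and 0.98 for Nanog. Lefty1, Dkk3 and Kcnj12 were not called with MG132. Egr1 and Spry4 rose more with MG132, by 5.26 and 2.04, from lower starting levels. Sox2 differed by -0.6. With the slide as a block the difference was no longer called for Aldh1a3, Npy, Fosl1, Dkk3, Tgtp2, Myo1f, Prmt8, Kcnj12, Cpt1a, Nanog and Sox2 (adjusted p 0.059 to 0.22), and it was still called for the other 11. With normexp background correction the difference was -0.73 for Fosl1 (adjusted p = 0.28) and 0.43 for Spry4 (adjusted p = 0.26), neither called. With quantile normalization it was not called for Kcnj12 and Cpt1a (adjusted p 0.068 and 0.051). Without untreated replicate 1 the difference was not called for Dkk3, Tgtp2, Myo1f, Kcnj12, Cpt1a and Sox2 (adjusted p 0.055 to 0.1). Fits without another single array also lost some of these calls, and that of Fosl1 was lost without untreated replicate 2 or MG132 replicate 1.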

How the results depend on the processing

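The count of 5156 calls stayed within 1.5 times under the other background correction, normalizations, filters, probe rules, array weights and variance settings run (4845 to 7468), was 7598 in the fit of all 12 arrays, and was 2563 with a 2-fold minimum, a stricter rule. Leaving out 1 array gave 2121 to 6087 calls. Of the 5156 genes, 4097 were also called with normexp, which gave 2847 rises and 2523 falls, and 3377 with no filter. Of 148 named and called genes, 139 kept their call with normexp, 136 with no filter, 116 and 117 without untreated replicates 1 and 2; Zic1 reversed with normexp (0.1, not called), and the cause was not tested.

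Samples with the same replicate number deviated together at correlations of 0.1, 0.09 and 0.27, and untreated replicates 1, 2 and 3 correlated best with 4OHT replicates 2, 2 and 3. Because 1 correlation was below 0.1, the numbers were not taken to pair the samples. With the replicate block 4366 genes were called, 1958 higher and 2408 lower, and 2491 differences of response. The block ended 10 of the 148 named calls, among them Ubash3b (adjusted p = 0.066), Ccnd1 (0.052), Gdf15 (0.086), Bag3 (0.057), Hsph1 (0.074), Slc3a2 (0.067), Nop58 (0.071) and Rrp9 (0.069), and left 0 heat shock rises. The 1736 differences of response became 762 with the slide as a block and 999 to 2516 with 1 array left out. Signal over background limits low genes: 760 genes tested were above background on none of the 4OHT arrays and 86 on none of the untreated arrays.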

Other observations

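The Zscan4 genes, markers of the rare stem cells that resemble the 2-cell embryo, were lowest on replicate 3 of both groups, and none of those tested was called between the groups. Zscan4c was at -1.56, -1.24 and -3.45 on untreated replicates 1 to 3 and at -0.75, -0.83 and -3.96 on 4OHT replicates 1 to 3. Zscan4f was at -0.97, -0.67 and -3.19 and at -0.18, -0.16 and -3.13, and Tcstv3, another gene of that state, at -0.28, -0.29 and -2.58 and at 0.03, 0.17 and -2.09. Zscan4f and Tcstv3 were higher with 4OHT than without at each replicate number, by less than the spread within either group. The Zscan4 copies are nearly identical, so their probes may read each other's transcripts. Of 8 genes of this state tested, 1 was called, Zfp352, a retrotransposon-derived gene that fell from 3.52, 3.44 and 3.24 to 2.67, 2.42 and 2.60 (change -0.84, SE 0.13), a call lost without untreated replicate 2 (adjusted p = 0.051). The list's median change was 0.36, and -0.34 without untreated replicate 3. These genes were chosen after their values were seen.

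Probes of 1 gene were called in opposite directions in 8 genes, among them Ankrd17, Dock9, Kalrn, Pde4d, Tmem94, Ttc7 and Ube2d-ps. Among called genes, 668 that rose and 519 that fell had no symbol and are not named.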
